A study of Homo sapiens with 9 samples.

Results

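The miR-15/16 family was followed in the human T lymphoblast line Jurkat (clone E6-1), an established cell line, before and after activation through the T cell receptor. The rule took every row whose mature name was hsa-miR-15a-5p, hsa-miR-15a-3p, hsa-miR-15b-5p, hsa-miR-15b-3p, hsa-miR-16-5p, hsa-miR-16-1-3p, hsa-miR-16-2-3p, hsa-miR-195-5p, hsa-miR-424-5p or hsa-miR-503-5p (the prefix hsa, for human, is left out from here on). It found 10 of the 2654 mature names in the small RNA count table, on 11 of its 2883 rows, since the table lists a mature miRNA once for each precursor and miR-16-5p has a pair of precursors. The groups were non-activated cells (0 h, the control) and cells activated for 5 h or 12 h, each with 3 biological replicates (9 libraries). Activation used wells coated with anti-CD3 antibody at 10 µg/mL, which engages the T cell receptor complex, and anti-CD28 antibody at 5 µg/mL, which engages a costimulatory receptor. All libraries came from 1 clone, and no non-activated cells were sampled at 5 h or 12 h, so activation and time in culture cannot be told apart.

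A miRNA is cut from a hairpin precursor whose 5′ and 3′ arms (5p and 3p) can each be loaded into Argonaute. It then represses mRNAs that pair with its seed, the bases near its 5′ end. The family is defined by a shared 5p seed, and its known targets include the survival factor BCL2 and cell cycle genes such as the D and E cyclins, CDK6 and CHEK1. The pair miR-15a/miR-16-1 is often deleted in chronic lymphocytic leukaemia, and in mouse T cells the family has been reported to restrain the cell cycle and the formation of memory cells. miR-16-5p is also widely used as a reference in miRNA measurements by PCR.

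The mature sequences of the 6 members from the 5p arm are shown because the seed is what they have in common. All 10 members were found in RefSeq (GRCh38.p14), and capitals mark bases 2 to 8, counted from 1 at the 5′ end.
miR-16-5p: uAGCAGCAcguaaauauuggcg
miR-15a-5p: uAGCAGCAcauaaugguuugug
miR-15b-5p: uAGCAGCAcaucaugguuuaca
miR-195-5p: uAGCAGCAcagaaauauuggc
miR-424-5p: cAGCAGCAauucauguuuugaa
miR-503-5p: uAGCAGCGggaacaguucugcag
In 5 of the 6 the seed was the same. miR-503-5p differed from miR-16-5p at the last seed base (A8G). Outside the seed the members diverged. Compared position by position with miR-16-5p, miR-195-5p was identical at 19 of 21 bases (G10A and U11G), miR-15a-5p at 16 of 22, miR-15b-5p at 14, miR-503-5p at 13 and miR-424-5p at 12. miR-15a-5p and miR-15b-5p were identical at 18 of 22 bases, and the differences were A12C, G20A, U21C and G22A.

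The 3p arms carry other seeds. They are shown because their counts were set against those of the 5p arms.
miR-15a-3p: cAGGCCAUauugugcugccuca
miR-15b-3p: cGAAUCAUuauuugcugcucua
miR-16-1-3p: cCAGUAUUaacugugcugcuga
miR-16-2-3p: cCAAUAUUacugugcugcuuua
The identical miR-16-5p is cut from both miR-16 hairpins, whereas the 3p arms tell the hairpins apart.

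The 7 hairpins lie at 4 loci of GRCh38. MIR15A (chr13:50049119-50049201) and MIR16-1 (chr13:50048973-50049061) lie on the minus strand, 57 bases apart, within the non-coding gene DLEU2, MIR15A over an annotated exon and MIR16-1 in an intron. MIR15B (chr3:160404588-160404685) and MIR16-2 (chr3:160404745-160404825) lie on the plus strand, 59 bases apart, in an intron of SMC4, which encodes a condensin subunit. MIR195 (chr17:7017615-7017701, minus strand) overlaps an exon of its host transcript MIR497HG, 209 bases from MIR497. MIR424 (chrX:134546614-134546711) and MIR503 (chrX:134546328-134546398) lie on the minus strand, 215 bases apart, in an exon and an intron of MIR503HG. Positions are from GENCODE 29 for the host genes and from RefSeq for the hairpins.

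Total counts per library ran from 6631839 to 16207031, and the shallowest libraries were replicate 3 of 12 h and replicate 3 of 0 h (7083813). Levels are in CPM (counts per 1000000 in the whole table, scaled by TMM). They are shares, and the amount of a miRNA per cell was not measured. A level of 3 counts corresponded to 0.185 to 0.452 CPM, and these floors cover counting error only. Summed over 4 miRNAs of T cell lines (miR-181a-5p, miR-142-3p, miR-142-5p and miR-342-3p), the level was 43004 to 48401 CPM before activation, 43787 to 45479 after 5 h and 45001 to 59318 after 12 h. Summed over 12 miRNAs of erythroid, myeloid, endothelial, liver, muscle, epithelial and fibroblast cells, it was 214 to 291, 254 to 359 and 269 to 308 CPM. In that list miR-1-3p, miR-133a-3p and miR-205-5p were at 0 counts in every library, and most of the sum came from miR-223-3p (106 to 157 CPM) and miR-200c-3p (66.3 to 127 CPM). miR-132-3p, known as a target of the transcription factor CREB, served as a reference for a changed miRNA. It had 442 ± 39.9 CPM before activation, 3192 ± 295 after 5 h and 3532 ± 136 after 12 h (SD, n = 3), with edgeR adjusted p of 3.19e-12 and 1.48e-12 against 0 h.

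miR-16-5p dominated the family. On its mir-16-1 row it had 67084, 61973 and 63448 CPM in replicates 1, 2 and 3 before activation, 62062, 65824 and 53012 after 5 h, and 64190, 58848 and 63110 after 12 h. It ranked 3 in mean level among the 1098 mature miRNAs with counts. The values of the 3 times overlapped, and the highest library was 1.27-fold above the lowest. The lowest, replicate 3 of 5 h, was also the deepest library and held 1139 of the 1467 counts of miR-122-5p, a liver miRNA on the list above. Their part in the miR-16-5p level was not tested.

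The row of miR-16-5p on mir-16-2 nearly repeated the first. The mir-16-1 row was higher in all 9 libraries, by between 99 counts (0.0238%, replicate 3 of 0 h) and 883 counts (0.109%, replicate 2 of 0 h). With nearly the same counts on both rows, the table does not show how much of the mature miRNA came from each hairpin.

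Counting each mature miRNA once, the 10 members held 10.0% ± 0.769 of all counts before activation, 9.74% ± 0.752 after 5 h and 9.92% ± 0.756 after 12 h (SD, n = 3). Over the 9 libraries the share ran from 8.88% to 10.9%. Of the members' counts, miR-16-5p made up 98.0% ± 0.336 (SD, n = 9). Without it, the members held 0.196% ± 0.0331 of all counts, and miR-15b-5p made up 66.0% ± 2.51 of that remainder. Almost all counts of the members thus came from 1 mature sequence at each of the times.

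miR-15b-5p, cut from the hairpin beside MIR16-2, had 917, 983 and 631 CPM before activation, 860, 932 and 947 after 5 h, and 893, 616 and 680 after 12 h (replicates 1, 2 and 3). miR-15a-5p, cut from the hairpin beside MIR16-1, had 213, 293 and 167 CPM before activation, 195, 207 and 241 after 5 h, and 224, 186 and 181 after 12 h. For both, the 3 times overlapped. The 3 libraries with the least miR-15b-5p (replicate 3 of 0 h and replicates 2 and 3 of 12 h) were also the 3 with the least miR-15a-5p. They include both of the shallowest libraries. Replicate 2 of 12 h, however, had 11798947 total counts. That is more than replicates 1 and 2 of 5 h (10376448 and 10071972), which had 860 and 932 CPM of miR-15b-5p. The part of depth in these levels was not tested.

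miR-424-5p and miR-503-5p come from neighbouring hairpins on the X chromosome and are known in other cells as miRNAs that accompany cell cycle exit and differentiation. miR-424-5p had 99.7, 137 and 85.9 CPM before activation, 122, 142 and 123.0 after 5 h, and 139, 136 and 131.5 after 12 h. miR-503-5p had 64.6, 48.3 and 51.3 CPM before activation, 49.7, 44.9 and 50.7 after 5 h, and 42.5, 39.4 and 48.5 after 12 h. The means of miR-424-5p were higher and those of miR-503-5p lower at each later time, but the libraries of the 3 times overlapped for both. The ratio of miR-424-5p to miR-503-5p counts was 1.54, 2.85 and 1.67 before activation, 2.44, 3.17 and 2.43 after 5 h, and 3.27, 3.46 and 2.71 after 12 h. It was chosen after the values were seen and was not tested, and replicate 2 of 0 h lay above replicates 1 and 3 of 5 h and replicate 3 of 12 h.

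miR-195-5p is the member closest to miR-16-5p in sequence. It had 20.0, 17.3 and 11.7 CPM before activation, 38.4, 29.5 and 12.1 after 5 h, and 16.6, 15.7 and 22.4 after 12 h. Replicates 1 and 2 of 5 h were the 2 highest libraries, while replicate 3 of 5 h was the second lowest of all. Its 2069 counts stand against 6439731 of miR-16-5p. How reads that fit more than 1 mature miRNA were counted is not given in the sources used here, so the level of miR-195-5p is uncertain.

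**Figure D1:**
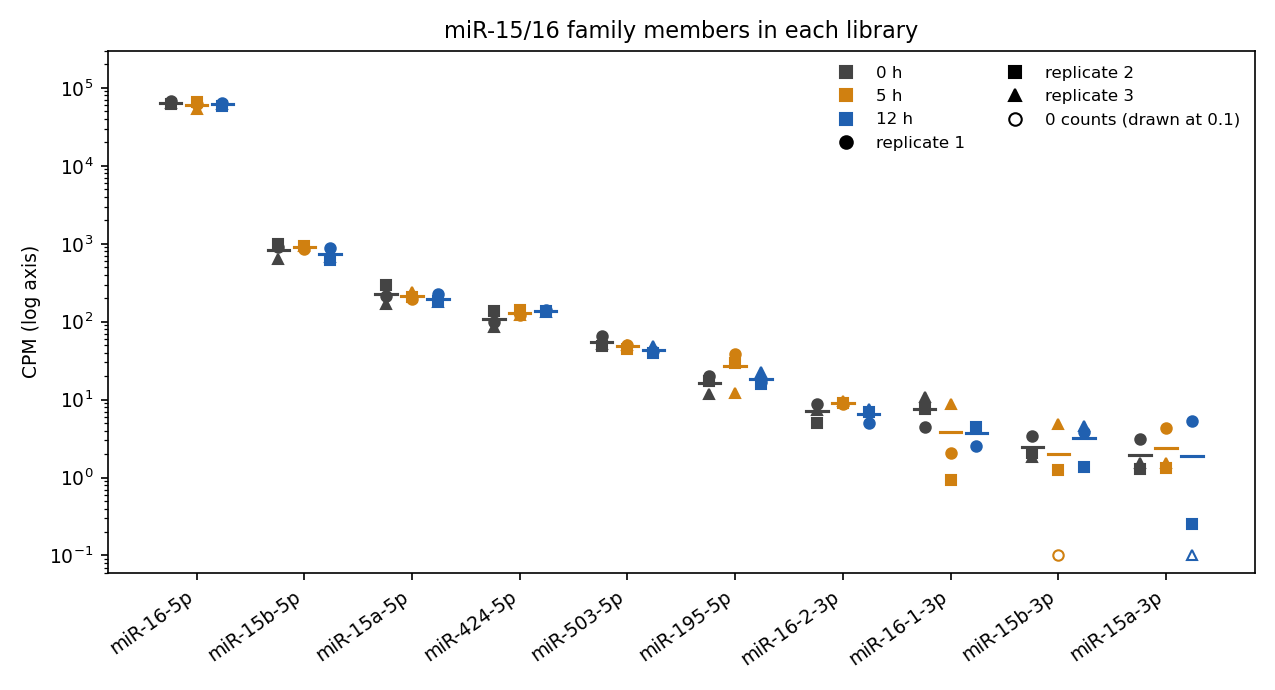
Level of the 10 members in CPM (log axis) in each library, with colour for the time, marker shape for the replicate and a bar for the mean of 3 libraries. An open symbol at 0.1 marks a library with 0 counts. miR-16-5p lies 75.0-fold above miR-15b-5p in mean level, the members from the 5p arm keep their order in all 9 libraries, and the points of miR-16-1-3p, miR-15b-3p and miR-15a-3p spread most on this axis.

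The order of the mean levels over the 9 libraries was miR-16-5p, miR-15b-5p, miR-15a-5p, miR-424-5p, miR-503-5p, miR-195-5p, miR-16-2-3p, miR-16-1-3p, miR-15b-3p and miR-15a-3p. Mature miRNAs are of nearly the same length, so CPM were compared between them without a correction. How efficiently each sequence was captured in the libraries was not measured, so these folds compare counts and not molecules. miR-15b-5p was 3.91-fold above miR-15a-5p, miR-15a-5p was 1.71-fold above miR-424-5p, miR-424-5p was 2.54-fold above miR-503-5p, and miR-503-5p was 2.40-fold above miR-195-5p. From miR-16-5p down to miR-16-2-3p, each was higher than the next in 9 of 9 libraries, with no overlap of the ranges. Below that the neighbours overlapped: miR-16-2-3p was above miR-16-1-3p in 7 of 9 libraries, miR-16-1-3p above miR-15b-3p in 6, and miR-15b-3p above miR-15a-3p in 6.

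The 3p arms were rare. Counts in replicates 1, 2 and 3 of miR-16-2-3p were 138, 65 and 48 before activation, 95, 87 and 165 after 5 h, and 67, 82 and 48 after 12 h. Those of miR-16-1-3p were 70, 98 and 71 before activation, 22, 9 and 148 after 5 h, and 34, 52 and 28 after 12 h. In CPM, miR-16-1-3p was lowest in replicate 2 of 5 h (0.92) and highest in replicate 3 of 0 h (10.8). miR-15b-3p had counts of 53, 27 and 12 before activation, 0, 12 and 83 after 5 h, and 51, 16 and 29 after 12 h. miR-15a-3p had counts of 48, 17 and 10 before activation, 46, 13 and 26 after 5 h, and 72, 3 and 0 after 12 h. For both, the means of the 3 times differed by less than the largest SD within a time.

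The first comparison asked whether any member had changed after 5 h of activation. None of the 11 member rows passed edgeR's quasi-likelihood test at an adjusted p of 0.05 (Benjamini-Hochberg over 701 tested rows), and 0 had an unadjusted p under 0.05. DESeq2 and limma-voom also called 0. Of all tested rows, 1.57% passed in this comparison. All 11 member rows were tested, each having passed the filter on low counts.

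miR-16-5p averaged 64168 ± 2630 CPM before and 60299 ± 6585 CPM after 5 h of activation (SD, n = 3), a log2 change of -0.09 with an SE of 0.10 (edgeR adjusted p = 0.996). The 95% interval of this change ran from -19.1% to 9.10%. For the rarer seed carriers the intervals were wider. miR-15b-5p went from 843 ± 187 to 913 ± 46.3 CPM (log2 change 0.11, interval -14.4% to 36.8%) and miR-15a-5p from 224 ± 63.4 to 214 ± 23.5 CPM (log2 change -0.07, interval -26.7% to 24.3%). miR-424-5p went from 108 ± 26.7 to 129 ± 11.6 CPM (log2 change 0.26, interval -8.52% to 56.5%) and miR-503-5p from 54.8 ± 8.68 to 48.4 ± 3.13 CPM (log2 change -0.18, interval -35.1% to 20.4%). The 5 adjusted p were all 0.996.

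The smallest p of a member at 5 h was that of miR-195-5p, which averaged 16.3 ± 4.21 CPM before and 26.6 ± 13.4 after activation (log2 change 0.70, SE 0.38, edgeR adjusted p = 0.736). Its interval, -6.67% to 182%, includes both no change and more than a doubling. The log2 change was 0.29 without replicate 1 of 5 h and 1.01 without replicate 3 (edgeR adjusted p = 0.480), so its size rests on single libraries. Among the 3p arms, miR-16-2-3p had a log2 change of 0.38 (SE 0.46), miR-16-1-3p of -0.95 (SE 0.74), miR-15b-3p of -0.25 (SE 1.24) and miR-15a-3p of 0.27 (SE 1.40), and none passed. That of miR-16-1-3p was -2.37 without replicate 3 and -0.54 without replicate 2 of 5 h. In no member did the 0 h and 5 h libraries separate without overlap, as they did in 10.8% of all tested rows (6.85% with the later group higher and 3.99% with it lower). The member rows had positive changes in 5 and negative changes in 6, with a median of -0.07 against 0.03 over all tested rows. Both rows of miR-16-5p, with nearly the same counts, are among the negative ones.

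At 12 h against 0 h, again 0 of the 11 rows passed (edgeR; 0 with an unadjusted p under 0.05, and 0 by DESeq2 and limma-voom), while 1.43% of all tested rows did. miR-16-5p was at 62050 ± 2824 CPM (SD, n = 3), a log2 change of -0.05 with an SE of 0.10 (edgeR adjusted p = 0.991), with an interval of -16.7% to 12.3%. miR-15b-5p was at 729 ± 145 CPM (log2 change -0.21, interval -31.6% to 9.35%) and miR-15a-5p at 197 ± 23.3 CPM (log2 change -0.19, interval -32.7% to 14.2%). For these 3 miRNAs, changes above 14.2% or below -32.7% lie outside the intervals.

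The X-linked members had changes of opposite sign at 12 h. miR-424-5p was at 136 ± 3.88 CPM, a log2 change of 0.33 (SE 0.18, edgeR adjusted p = 0.768), with an interval of -3.74% to 64.7%. miR-503-5p was at 43.5 ± 4.62 CPM, a log2 change of -0.34 (SE 0.21, edgeR adjusted p = 0.848), with an interval of -41.9% to 8.05%. Neither passed. The change of miR-424-5p was 0.20 without replicate 3 and 0.50 without replicate 2 of 0 h, and that of miR-503-5p was -0.20 without replicate 1 of 0 h. miR-195-5p was at 18.2 ± 3.67 CPM, close to its level at 0 h (log2 change 0.15, SE 0.38).

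Of the members, miR-16-1-3p alone had non-overlapping groups at 12 h. It went from 7.60 ± 3.16 to 3.77 ± 1.07 CPM, and the highest of the 12 h libraries (4.39 CPM) lay just below the lowest at 0 h (4.50). It did not pass (log2 change -1.01, SE 0.74, edgeR adjusted p = 0.892), and its interval ran from -83.1% to 46.7%. Groups did not overlap, with the later one lower, in 4.99% of all tested rows, so 1 of 11 is near that background. The other 3p arms had log2 changes of -0.12 for miR-16-2-3p, 0.40 for miR-15b-3p and -0.06 for miR-15a-3p. In all, 3 member rows had positive and 8 negative changes, with a median of -0.06 against 0.01 over all tested rows. The negative ones include both rows of miR-16-5p, which hold nearly the same counts. The comparisons at 5 h and 12 h share the 0 h libraries.

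**Figure D2:**
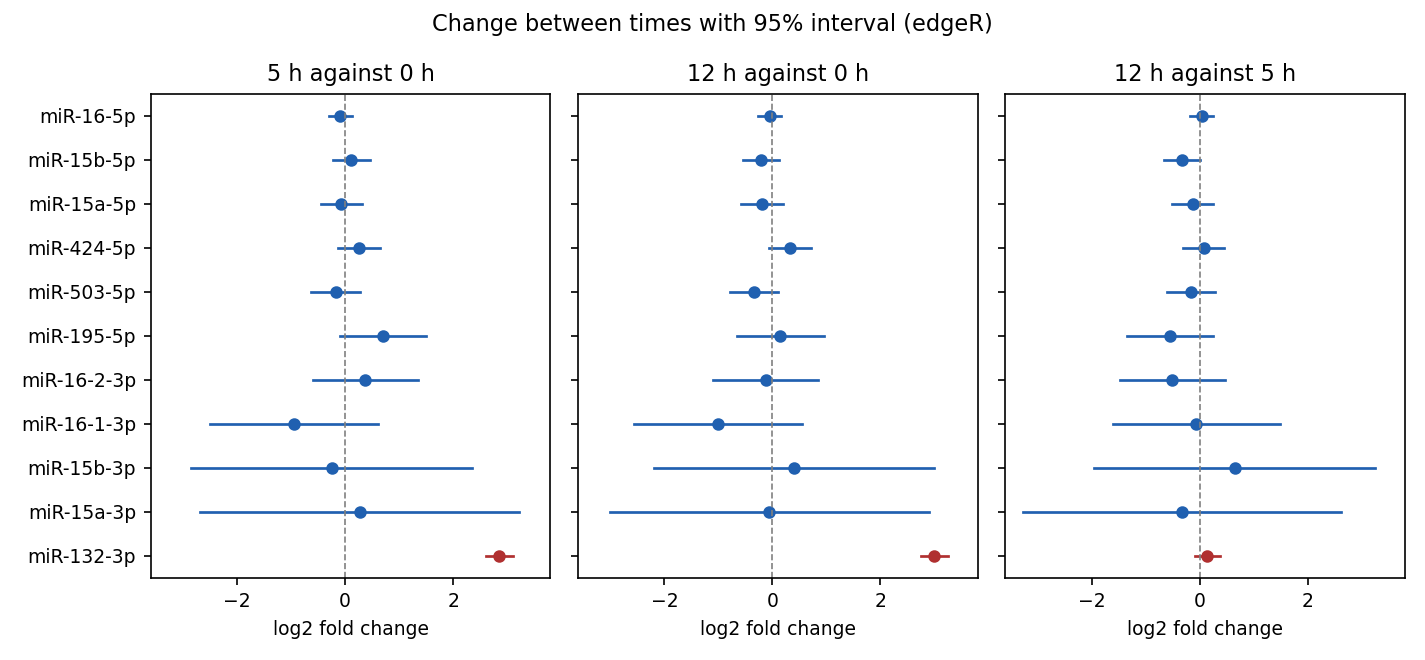
Log2 change (x axis) of each member row in the 3 comparisons, one panel each, from the edgeR fit, with its 95% interval as a bar; miR-132-3p is drawn in red as a reference for a changed miRNA. Every member interval includes 0, the narrowest are those of miR-16-5p, and those of the 3p arms are the widest.

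Between 12 h and 5 h, 0 of 11 member rows passed (edgeR; 0 with an unadjusted p under 0.05, and 0 by DESeq2 and limma-voom), against 0.571% of all tested rows. The smallest p was that of miR-15b-5p (log2 change -0.32, SE 0.16, edgeR adjusted p = 0.720), with an interval of -36.8% to 1.07%. Without replicate 1 of 12 h its change was -0.52 with an edgeR adjusted p of 0.183, the smallest adjusted p of any member in any setting tried. Those 12 h libraries that remain are 2 of the 3 libraries with the least miR-15b-5p. miR-16-5p differed by 0.04 (SE 0.10) on the log2 scale, with an interval of -11.4% to 19.5%.

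miR-16-2-3p was the member whose 5 h and 12 h libraries did not overlap, with 9.16 ± 0.453 CPM after 5 h and 6.49 ± 1.32 after 12 h. It did not pass (log2 change -0.50, SE 0.46), and 7.85% of all tested rows were lower at 12 h without overlap. Tested for any difference over the 3 times, edgeR, DESeq2 and limma-voom also called 0 member rows, against 1.71% of all tested rows.

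miR-16-5p was among the steadier abundant miRNAs. The SD of its log2 CPM over the 9 libraries was 0.101, the 11th smallest of the 46 mature miRNAs with a mean of at least 1000 CPM, where the SD had a median of 0.133 and ran from 0.0455 to 1.47. That order is a description, and 10 abundant miRNAs varied less.

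The balance of the 5p and 3p arms of each hairpin was compared next, since a ratio within a library does not depend on scaling. It still holds any difference in capture between the arms, which was not measured. Of 184 hairpins with both arms counted, 6 held members, and MIR195 was not tested because miR-195-3p had 0 counts in all libraries. In sum over the libraries, the ratio of 5p to 3p counts was 97.0 for mir-15a (22794 to 235), 315 for mir-15b (89273 to 283) and 40.9 for mir-503 (5153 to 126). It was 12100 for mir-16-1 and 8090 for mir-16-2, ratios that both use the miR-16-5p counts of the 2 hairpins together and are therefore upper values. The mean ratios of these 5 hairpins stood between percentile 84.2 (mir-503) and 95.7 (mir-16-1) of the 184.

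The hairpin of miR-424, at percentile 39.7, was the exception. miR-424-3p, the arm that does not carry the family seed, had 23601 counts against 13016 of miR-424-5p, and was the higher arm in all 9 libraries. Its seed is shown in capitals beside the hairpin of mir-16-1, where the 5p arm dominates; in the hairpins, capitals mark the 2 mature arms.
miR-424-3p: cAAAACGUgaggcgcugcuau
MIR424: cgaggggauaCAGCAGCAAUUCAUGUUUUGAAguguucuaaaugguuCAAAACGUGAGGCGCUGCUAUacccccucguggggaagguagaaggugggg
MIR16-1: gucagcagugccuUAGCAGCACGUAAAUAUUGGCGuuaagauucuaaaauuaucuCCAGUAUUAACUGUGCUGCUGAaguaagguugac
The ratio of miR-424-3p to miR-424-5p was 2.11, 1.26 and 2.56 before activation, 1.88, 1.57 and 2.08 after 5 h, and 1.68, 1.82 and 1.88 after 12 h. The 0 h libraries spanned the widest range and enclosed all libraries of 5 h and 12 h.

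A difference in arm balance between times was not detected in the 6 tested member hairpins. For mir-16-1 and mir-16-2 these tests again use the miR-16-5p counts of both hairpins together, so the balance of each hairpin alone was not measured. limma called 0 of them in each comparison, and also 0% of all 184 hairpins. For mir-424 the log2 ratio of 5p to 3p was -0.92 ± 0.53 before activation, -0.87 ± 0.21 after 5 h and -0.84 ± 0.08 after 12 h (SD, n = 3). The largest difference of a member hairpin was that of mir-503, from 9.07 ± 2.08 at 0 h to 5.28 ± 0.40 at 5 h (difference -3.80, SE 1.90, interval -8.26 to 0.67, limma adjusted p = 0.783). Its 5 h libraries all lay below those of 0 h, which also held for 7.61% of the 184 hairpins. The difference rests on few miR-503-3p counts, which were 0, 5 and 0 before activation, 11, 15 and 19 after 5 h, and 76, 0 and 0 after 12 h.

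**Figure D3:**
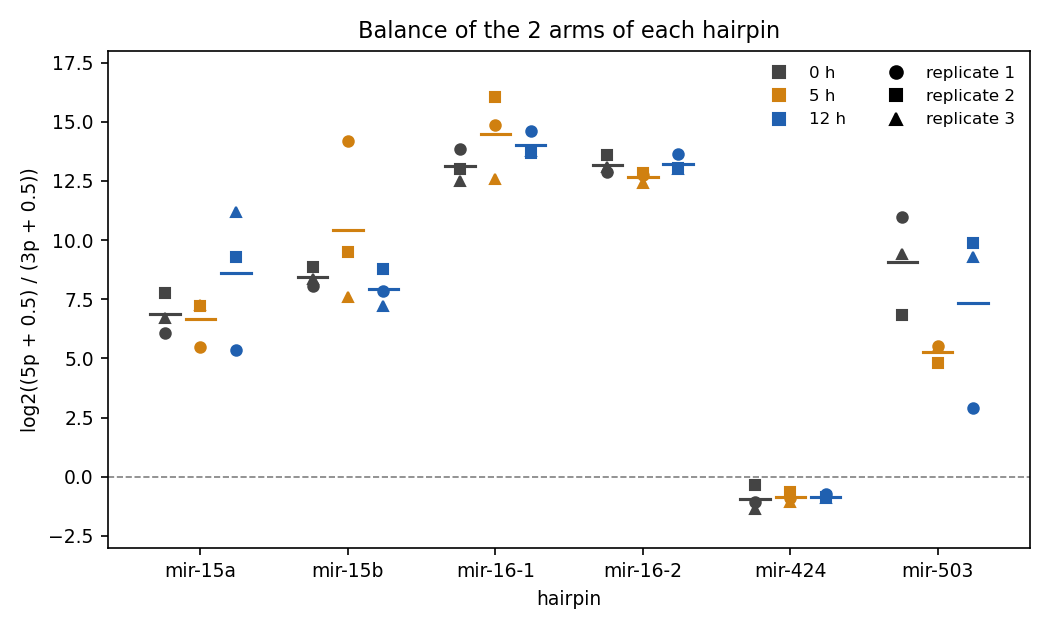
Log2 ratio of 5p to 3p counts (0.5 added to each) of the 6 member hairpins in each library, with colour for the time and marker shape for the replicate. mir-424 is the single hairpin below 0, and the points of mir-503, mir-15a and mir-15b, which have few 3p counts, spread over several log2 units.

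miR-15a-5p and miR-15b-5p each come from a single hairpin, on chromosome 13 and chromosome 3. Their ratio compares these mature miRNAs within a library, and transcription of the loci was not measured. miR-15b-5p exceeded miR-15a-5p by between 3.32-fold and 4.51-fold in the 9 libraries. The log2 ratio of miR-15a-5p to miR-15b-5p was -1.92 ± 0.178 before activation, -2.10 ± 0.104 after 5 h and -1.88 ± 0.136 after 12 h (SD, n = 3). The difference was -0.17 at 5 h (exact two-sided permutation p = 0.2, 0.3 after adjustment over 3 comparisons), and 0.04 at 12 h (exact p = 0.7). Between 12 h and 5 h it was 0.22 (exact permutation p = 0.2, adjusted 0.3), and with 3 libraries on each side p cannot fall below 0.1.

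How the members varied together over libraries was examined for 4 pairs chosen after the values were seen. The p-values of these pairs are therefore descriptions that decide nothing, and their permutations pooled the times. The libraries fell into 3 with lower and 6 with higher miR-15b-5p, split at the widest gap in its own values. Its relations were computed within the 6. There miR-15a-5p and miR-15b-5p had Pearson's r of 0.841 (exact permutation p = 0.0389, 0.106 adjusted over 4 pairs) and Spearman's rho of 0.771 (exact permutation p = 0.103, adjusted 0.206). Without the 2 libraries farthest from the median of miR-15a-5p (replicate 2 of 0 h and replicate 1 of 5 h), r was 0.277. Leaving them out also narrows the range of miR-15a-5p, so the lower r does not show what the relation rests on. Over all 9 libraries, as deviations from the mean of each time, r was 0.85 for this pair. The same measure was 0.15 for miR-15b-5p and miR-16-5p. miR-15b-5p and miR-16-5p, from neighbouring hairpins, had r = -0.262 (exact permutation p = 0.596) and rho = -0.429 (exact permutation p = 0.419, adjusted 0.559) in the same 6, and r was -0.619 without the 2 farthest.

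Over all 9 libraries, miR-15a-5p and miR-16-5p had r = -0.217 (exact permutation p = 0.552, adjusted 0.596) and rho = -0.15 (exact permutation p = 0.708), and r was -0.315 without the 2 farthest. Taking deviations from the mean of each time, r was -0.280. For miR-424-5p and miR-503-5p, r was -0.682 and rho -0.85 over the 9 libraries. These are given as a description with no p, since the pair was chosen after its opposite pattern was seen and the means of both differ between times in opposite directions. Taking deviations from the mean of each time, r was -0.444. Without the 2 libraries farthest from the median, both of 0 h, r was -0.666, and without the 2 shallowest libraries it was -0.904.

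**Figure D4:**
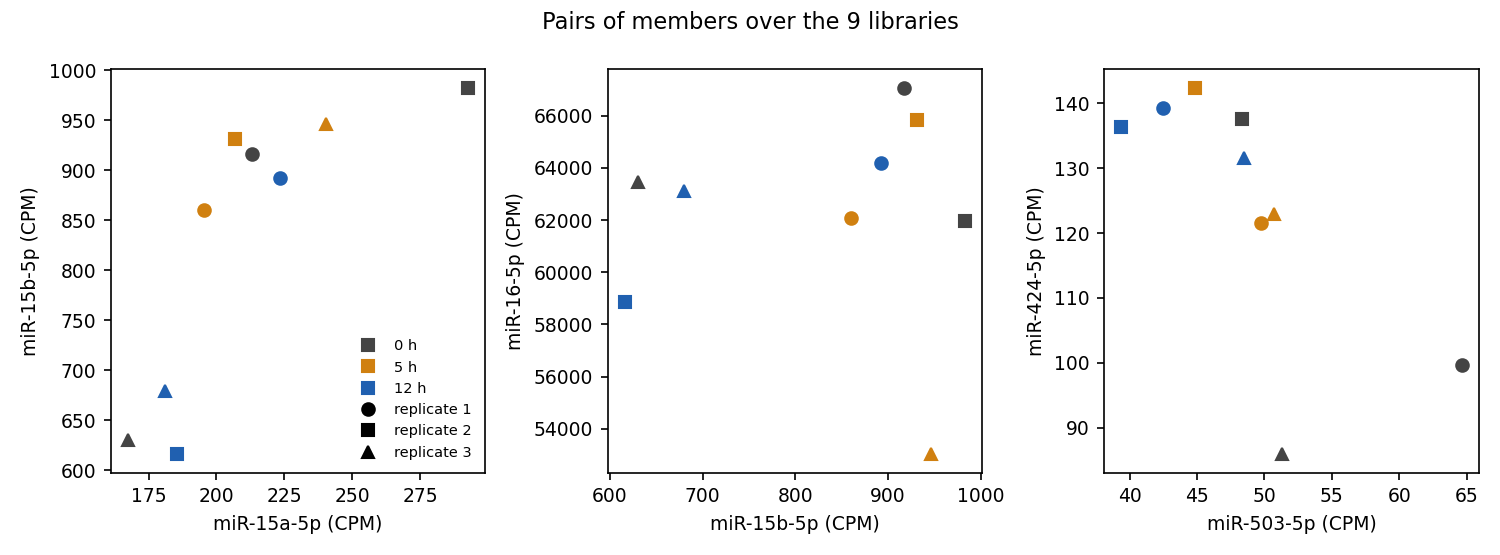
Level of 1 member against another in the 9 libraries, in CPM, for miR-15a-5p and miR-15b-5p, miR-15b-5p and miR-16-5p, and miR-503-5p and miR-424-5p, with colour for the time and marker shape for the replicate. The 3 libraries low in miR-15b-5p (616 to 680 CPM) stand apart from the other 6 (860 to 983 CPM), and the 2 libraries with the most miR-503-5p have the least miR-424-5p.

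Among 115 other mature miRNAs with a mean of at least 100 CPM, those with the pattern most like miR-16-5p over the 9 libraries were miR-130b-3p (r = 0.586), miR-196a-5p (r = 0.574) and miR-183-5p (r = 0.413). For miR-15b-5p they were miR-27b-3p (r = 0.881), miR-18a-5p (r = 0.853) and miR-29b-3p (r = 0.833). These are the highest of many correlations and share the libraries and their depth, so they are given as a description with no test.

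Other miRNAs related to the family were taken by seed, precursor or position. Of 6 with the same seed or from the other arm of a member's hairpin or of MIR497, 4 were tested (miR-424-3p, miR-503-3p, miR-497-3p and miR-6838-5p). Of these, 0 rose and 0 fell in each comparison (edgeR, 0 with an unadjusted p under 0.05). Over all tested rows, 1.57% passed at 5 h, 1.43% at 12 h and 0.571% between 12 h and 5 h. miR-424-3p had 211, 173 and 220 CPM before activation, 228, 223 and 256 after 5 h, and 234, 249 and 247 after 12 h. All libraries of 5 h and 12 h lay above all of 0 h, which also held for 6.85% and 7.13% of all tested rows, and it did not pass (log2 change 0.23, SE 0.14, edgeR adjusted p = 0.850 at 5 h and 0.27, SE 0.14, adjusted p = 0.734 at 12 h).

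2 further miRNAs share the seed of the family and are shown for it.
miR-497-5p: cAGCAGCAcacugugguuugu
miR-6838-5p: aAGCAGCAguggcaagacuccu
miR-497-5p, from the hairpin beside MIR195, had 25, 25 and 4 counts at 0 h, 0 in the 3 libraries of 5 h, and 6, 0 and 0 at 12 h. It did not pass the filter on low counts and was not tested. miR-6838-5p had at most 5.91 CPM in any library.

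Of 7 further arms from the X-chromosome cluster, 5 were tested and 0 rose and 0 fell (edgeR, 0 with an unadjusted p under 0.05). The shares of all tested rows that passed were 1.57% at 5 h, 1.43% at 12 h and 0.571% between them, so so short a list could hold 0 by that background. The most abundant was miR-450a-5p, with 41.6 ± 9.28, 38.8 ± 11.5 and 39.5 ± 14.8 CPM at 0, 5 and 12 h, followed by miR-542-5p with 13.4 ± 2.82, 15.8 ± 3.62 and 17.8 ± 2.50. The others were miR-450a-2-3p, miR-450b-5p, miR-450a-1-3p and miR-542-3p, each under 6 CPM in every library, and miR-450b-3p at 0 counts.

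miR-103a-3p and miR-107, which lie in introns of pantothenate kinase genes, hold the letters of the family seed shifted by 1 base, at bases 1 to 7. They are printed with bases 2 to 8 in capitals as above.
miR-103a-3p: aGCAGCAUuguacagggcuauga
miR-107: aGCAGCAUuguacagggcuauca
Neither passed, and miR-646, listed with them for a seed that differs from the family's at its last base, had 0 counts. miR-103a-3p had 2995 ± 221 CPM before activation, 3367 ± 55.6 after 5 h and 3577 ± 319 after 12 h, and was higher without overlap at both later times, as were 6.85% and 7.13% of all tested rows. Its unadjusted p at 12 h was 0.0277 (log2 change 0.26, SE 0.11, edgeR adjusted p = 0.661). miR-107 had 308 ± 52.5, 289 ± 23.5 and 262 ± 30.7 CPM, with a log2 change of -0.23 at 12 h (edgeR adjusted p = 0.848).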

How the data were processed

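Small RNA was sequenced from 9 Jurkat libraries. The authors deposited raw counts per precursor and mature miRNA pair, and a table of log2 values for 430 rows, which to within 5.52e-09 are log2 of 1 plus the count over a factor for that library. GRCh38.p13 and DESeq2 are named in the submitters' processing notes; neither aligner nor counter is given in the sources used here. Groups and replicates came from the labels.

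Of 1214 rows above 0, 701 passed filterByExpr (minimum count 10, total 15) in edgeR 4.0.16 (R 4.3.3). Counts were scaled by TMM and fitted with 1 mean per time over all 9 libraries by quasi-likelihood; p-values were adjusted by Benjamini-Hochberg over all tested rows (threshold 0.05). Arm ratios were fitted with limma 3.58.1 on hairpins with a mean of at least 5 counts on the weaker arm. DESeq2 1.42.0, limma-voom, other scalings, filters and designs, and left-out libraries were alternatives. No pair of replicates agreed within sampling noise (chi-square per degree of freedom at least 83.6). The fits were tested on simulated data with less spread than the common value here (a biological coefficient of variation of 77%). That test does not show how the fits perform at the spread of these libraries.

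All members, the related lists and the reference miRNA were named, with the 3 miRNAs most alike. The members and lists were chosen with earlier results of these data known.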

Additional observations from a re-analysis of the deposited data

How the results depend on the processing

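None of the 11 member rows passed in any comparison under any alternative. The 33 member changes gave 672 values under 21 alternatives, of which 633 kept their sign and 0 passed (smallest adjusted p 0.183, with 3 undefined in DESeq2); 39 values in 17 changes had the opposite sign. Upper quartile factors raised the median change of all rows by 0.16 at 12 h against both other times. With them the 12 h against 0 h change was 0.11 for miR-16-5p, 0.028 for miR-16-2-3p and 0.083 for miR-15a-3p, and the 12 h against 5 h change was 0.042 for miR-15a-5p, 0.13 for miR-16-1-3p and 0.0080 for miR-503-5p. Library totals gave 0.035 for miR-15a-3p at 12 h, and limma-voom -0.0022 for miR-15a-3p at 5 h. Without the 2 shallowest libraries the change was -0.053 for miR-15b-5p at 5 h, and 0.35, -0.094 and -0.22 for miR-15a-3p, miR-15b-3p and miR-195-5p at 12 h, and 0.25 for miR-15a-3p between 12 h and 5 h. For miR-16-1-3p between 12 h and 5 h it was 0.061 with limma-voom, 0.34 in the fit with a replicate block, and 0.49 when limma was run on the authors' log2 table. The cause of these reversals was not tested. Counting every precursor row, the members held 12.7%, 12.4% and 12.6% of counts at 0, 5 and 12 h, since miR-16-5p then enters 2 times.

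Whether same-numbered libraries are paired was not settled. Deviations correlated at -0.0297 to 0.0604 within 9 same-numbered pairs and -0.114 to 0.0858 within 18 others. Of 9 libraries, 5 correlated best with their own number, and values this close to 0 cannot exclude pairing. With a replicate block 13 rows passed at 5 h, 11 at 12 h and 11 between 12 h and 5 h. Without it these were 11, 10 and 4 rows. The block changed no member's call.

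With single libraries left out, log2 changes at 5 h ran from -0.49 to 0.77 for miR-15a-3p, -0.24 to 0.14 for miR-15a-5p, -1.999 to 0.31 for miR-15b-3p and -0.060 to 0.21 for miR-15b-5p. At 12 h they ran from -3.77 to 0.48 for miR-15a-3p, -0.36 to 0.0061 for miR-15a-5p, -0.37 to 0.072 for miR-16-2-3p and -0.050 to 0.31 for miR-195-5p. Between 12 h and 5 h they ran from -4.00 to 0.44 for miR-15a-3p, -0.50 to 1.32 for miR-16-1-3p and -0.056 to 0.14 for miR-16-5p. Among the rest, these changes kept their sign but moved by over 1.5 times. At 5 h they were -0.21 to -0.030 for miR-16-5p, -2.37 to -0.54 for miR-16-1-3p and 0.15 to 0.61 for miR-16-2-3p. Also at 5 h they were 0.29 to 1.01 for miR-195-5p, 0.12 to 0.44 for miR-424-5p and -0.29 to -0.010 for miR-503-5p. At 12 h they were -0.12 to -0.023 for miR-16-5p, -0.43 to -0.12 for miR-15b-5p and 0.054 to 0.76 for miR-15b-3p. Also at 12 h they were -1.29 to -0.67 for miR-16-1-3p, 0.20 to 0.50 for miR-424-5p and -0.46 to -0.20 for miR-503-5p. Between 12 h and 5 h they were -0.91 to -0.16 for miR-195-5p, -0.52 to -0.22 for miR-15b-5p and 0.061 to 2.35 for miR-15b-3p. In that comparison they were also -0.25 to -0.043 for miR-15a-5p, 0.028 to 0.18 for miR-424-5p and -0.26 to -0.090 for miR-503-5p. Arm ratio differences ran from -0.58 to 0.39 for mir-15a at 5 h, -1.42 to 0.32 for mir-16-1 between 12 h and 5 h, -0.15 to 0.26 for mir-16-2 at 12 h and -2.99 to 0.50 for mir-503 at 12 h. For mir-424 they ran from -0.17 to 0.35 at 5 h, -0.14 to 0.38 at 12 h and -0.064 to 0.14 between 12 h and 5 h. The miR-15a-5p to miR-15b-5p ratio at 12 h differed by -0.048 to 0.13. The 3p arms had the fewest counts of the members, and miR-15a-3p and miR-15b-3p had at most 83 in a library. In the shallowest library, replicate 3 of 12 h, miR-15a-3p had 0 counts and miR-15b-3p had 29. In replicate 1 of 5 h miR-15b-3p had 0 and miR-15a-3p had 46. The part of depth in these counts was not tested.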
